A study of Mus musculus with 10 samples.

Results

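ABC efflux transporters are membrane pumps that use ATP to move molecules out of the cell, and the genes described here encode those known for exporting drugs and the conjugates made by detoxifying enzymes. The genes were listed by name: Abcc1, Abcc2, Abcc3, Abcc4, Abcc5, Abcc10, Abcb1a, Abcb1b and Abcg2. They are 9 of 47729 genes in the count table, and all 9 were among the 16362 genes that passed the filter on low counts. RNA came from the retinal pigment epithelium (RPE), a single layer of pigmented cells behind the retina, in 5 mice of the wild-type CD1 strain, all of age p40. In each mouse 1 eye (GFP control) had received AAV Best1 GFP, and the fellow eye (Nrf2) had received that vector together with AAV Best1 Nrf2. Both are adeno-associated virus vectors driven by the human Best1 promoter, which works in RPE cells. Nrf2 is the transcription factor of the antioxidant response and was delivered as the human sequence (hNrf2 in the labels). The Nrf2 eyes thus carried 1 more vector than the control eyes, in another capsid per the study's methods, and no eye analysed here carried an additional vector without Nrf2.

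Toxic compounds and products of oxidation are handled in steps: enzymes attach glutathione, glucuronide or sulfate, and the charged conjugate then needs a pump to leave the cell. The MRP proteins (encoded by the Abcc genes here) export such conjugates and other organic anions, and several of them also move glutathione itself. P-glycoprotein (Abcb1a and Abcb1b in the mouse) exports many lipophilic drugs, and the product of Abcg2, also called breast cancer resistance protein, exports drugs, sulfate conjugates and urate. Nrf2 acts by binding antioxidant response elements in DNA, and several pumps of this class are known Nrf2 targets in liver.

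Libraries held 12298404 to 27310638 counts. The mouse gene of the delivered factor, Nfe2l2, was at 79.3 to 110 CPM (counts scaled to the library total) in control eyes and 267 to 414 CPM in Nrf2 eyes, and these counts can include reads of the human sequence. Of 8 RPE markers, 5 were lower in Nrf2 eyes at an adjusted p under 0.05, and the summed level of the 8 was 18670 to 41060 CPM in control and 9071 to 26060 CPM in Nrf2 eyes. Best1 itself was at 0.766 ± 0.468 CPM in control eyes (SD, n = 5), so its own transcript does not mark these samples. Of 10 microglia and macrophage markers, 7 rose and none fell, with summed levels of 145 to 271 CPM in control and 256 to 1308 CPM in Nrf2 eyes. Most of the control sum was Csf1r (197 ± 50.5 CPM in control and 142 ± 58.9 CPM in Nrf2 eyes, adjusted p = 0.301), and the other 9 markers summed to 9.34 to 28.2 CPM in control and 195 to 1086 CPM in Nrf2 eyes. Both eyes of mouse 2 had the highest summed level of 8 rod markers in their groups (17090 CPM in the control and 6496 CPM in the Nrf2 eye). In such bulk samples, fewer cells of a type and less RNA per cell cannot be told apart.

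To see where Nrf2 could meet these genes, the promoter windows in RefSeq (GRCm38.p6, the build of the study), which span 250 bases before to 50 bases after a start site, were searched for the core of the antioxidant response element. The core was spelled TGACNNNGC and searched on both strands. RefSeq windows were available for 7 of the 9 genes, and Abcc1 and Abcc3 had no entry. The 7 genes had 11 windows, and 6 of these held the core, against 12.4% of 32851 windows of the same length over all genes. By gene, 4 of 7 had a match in some window, against 13.99% of 27025 genes, which had fewer windows per gene. The windows of Abcc4, the gene with the largest rise in counts, are shown because both held the core, and that of Abcc5 is shown as a window without it in a gene that did not pass the test. Capitals mark the core, and each window is written along the strand of its gene, which is the minus strand for all 3. They lie at chr14:118706170-118706469 (upstream Abcc4 start), chr14:118676882-118677181 (internal Abcc4 start) and chr16:20426345-20426644 (Abcc5).
Abcc4, upstream start: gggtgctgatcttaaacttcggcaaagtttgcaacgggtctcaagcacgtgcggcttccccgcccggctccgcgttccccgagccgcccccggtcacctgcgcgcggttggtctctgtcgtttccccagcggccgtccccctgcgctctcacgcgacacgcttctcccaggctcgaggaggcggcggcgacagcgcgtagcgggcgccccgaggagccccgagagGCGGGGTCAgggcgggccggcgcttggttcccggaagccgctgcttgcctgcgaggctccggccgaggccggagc
Abcc4, internal start: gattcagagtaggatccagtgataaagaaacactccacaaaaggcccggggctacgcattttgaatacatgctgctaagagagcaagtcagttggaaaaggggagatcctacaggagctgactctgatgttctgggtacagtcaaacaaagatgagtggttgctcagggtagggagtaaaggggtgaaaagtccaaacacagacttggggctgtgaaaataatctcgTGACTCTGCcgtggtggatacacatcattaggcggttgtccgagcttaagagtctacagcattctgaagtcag
Abcc5: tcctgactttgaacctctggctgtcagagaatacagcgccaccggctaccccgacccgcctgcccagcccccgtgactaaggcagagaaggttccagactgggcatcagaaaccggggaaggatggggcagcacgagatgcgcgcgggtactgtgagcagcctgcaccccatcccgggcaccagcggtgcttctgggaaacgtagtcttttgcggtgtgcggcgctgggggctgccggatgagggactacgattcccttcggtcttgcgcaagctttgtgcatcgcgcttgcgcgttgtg

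The upstream Abcc4 window held the core on the strand opposite to the gene, written there as GCGGGGTCA, 25 to 17 bases before the start. The internal Abcc4 window held TGACTCTGC on the gene's strand, 23 to 15 bases before its start. Matches also stood in genes that did not pass the test: TGACATAGC in Abcc2, TGACATGGC and TGACCTGGC in the windows of Abcc10, and GCGGAGTCA in Abcb1a. The RefSeq window of Abcb1a ends at 8567140 on chromosome 5, wholly upstream of the GENCODE gene start at 8660077. The spelling TGACTCAGC occurred in 0 of the 11 windows (0.454% of all windows), and TGANTCA, the AP-1 element, whose first letters are shared with the core, also in 0 of the 11 (7.81% of all windows). GCGTG, the core of the xenobiotic response element, was found in 2 of the 11, 1 each for Abcc4 and Abcg2 (32.4% of all windows). A match is a stretch of letters and not a measured binding site.

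The first question was which of the pumps differed between the eyes of a mouse. Abcc1, Abcc3 and Abcc4 rose in the Nrf2 eyes, none of the 9 fell at an adjusted p under 0.05 in edgeR or DESeq2 (1, Abcc10, was lower at an unadjusted p under 0.05), and the other 6 did not pass. Over all genes, 6.33% passed the same test in either direction, 3.6% higher and 2.73% lower. The median log2 fold change was 0.35 over the 9 genes and -0.01 over all tested genes. The 0.35 is the value of Abcc2, a gene of few counts, and the median of the 9 was -0.01 without mouse 4 and -0.05 with rod markers as a covariate. The 3 genes that rose are all MRP genes, as are 3 of the 6 that did not pass. In all 13 alternative fits, 3 of the genes passed, and these were Abcc1, Abcc3 and Abcc4 each time. DESeq2, 1 of these fits, passed 9.44% of the genes to which it gave an adjusted p. All p-values of genes are from edgeR's quasi-likelihood test with the mouse as a block, adjusted over all genes, and counts of mice with a higher or lower Nrf2 eye are of paired log2 ratios scaled by TMM.

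Abcc4 (ENSMUSG00000032849, chromosome 14, 118482692 to 118706219, minus strand, mm10) encodes MRP4, which exports cyclic nucleotides, prostaglandins and, together with glutathione, organic anions. In the control eyes of mice 1 to 5, Abcc4 was at 94.2, 75.0, 92.3, 98.4 and 79.7 CPM. In their Nrf2 eyes it was at 511, 649, 601, 746 and 582 CPM. The lowest Nrf2 eye was thus more than 5 times the highest control eye. The log2 fold change was 2.79 (SE 0.09, n = 5 mice, adjusted p = 6.98e-05), from 87.9 ± 10.02 to 618 ± 87.4 CPM (SD, n = 5 eyes each), with a rise in 5 of 5 mice. Over the alternatives the log2 fold change of Abcc4 ran from 2.74 to 2.90. It was among the best measured of the 9 genes, with 1218 to 2177 counts in control and 9177 to 15972 counts in Nrf2 eyes.

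Abcc1 (ENSMUSG00000023088, chromosome 16, 14361558 to 14475737, plus strand) encodes MRP1, the classic exporter of glutathione conjugates and of leukotriene C4. Its control values in mice 1 to 5 were 121, 68.4, 111, 129 and 60.7 CPM. Its values in the Nrf2 eyes were 214, 228, 270, 266 and 212 CPM. The control eyes varied more than the Nrf2 eyes, with mice 2 and 5 low, and the groups did not overlap. The log2 fold change of Abcc1 was 1.32 (SE 0.17, adjusted p = 0.00361), from 97.9 ± 31.3 to 238 ± 28.1 CPM. The paired fold was largest in the mice with low control eyes (3.29 in mouse 2 and 3.28 in mouse 5) and smallest in mouse 1 (1.86).

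Abcc3 (ENSMUSG00000020865, chromosome 11, 94343295 to 94392997, minus strand) encodes MRP3, which exports glucuronide conjugates across the basolateral membrane of epithelia. It was close to the detection limit in control eyes, with 13, 0, 4, 5 and 11 counts in mice 1 to 5 (0.663, 0, 0.279, 0.299 and 0.403 CPM). The Nrf2 eyes had 114, 147, 151, 50 and 213 counts (5.19, 5.98, 5.68, 4.07 and 12.9 CPM). All Nrf2 eyes were above all control eyes, and the Nrf2 eye of mouse 5 was the highest by a wide margin. The log2 fold change of Abcc3 was 4.36 (SE 0.52, adjusted p = 0.00678), the largest of the 9 genes, from 0.329 ± 0.239 to 6.77 ± 3.52 CPM, and without mouse 2 it was 4.02 (adjusted p = 0.00773). The control eye of mouse 2 had no count, which allows up to 3 counts or 0.185 CPM, so that its Nrf2 eye was at least 32.3-fold higher. This floor covers counting error only, because amplified reads are not independent molecules.

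Abcc3 passed the filter on low counts through the Nrf2 eyes, since 1 control eye and 5 Nrf2 eyes reached the 0.55 CPM that the filter asks of at least 5 libraries. Its highest library, the Nrf2 eye of mouse 5, also had the highest summed level of the microglia and macrophage markers, 1308 CPM against 256 to 758 CPM in the other Nrf2 eyes. It was highest among the Nrf2 eyes for markers of red cells (2513 CPM against 370 to 995) and of skeletal muscle (545 CPM against 4.51 to 345) too, and by less for those of pericytes and Mueller glia. In the Nrf2 eyes of mice 1 to 4, Abcc3 was at 5.19, 5.98, 5.68 and 4.07 CPM. The microglia and macrophage markers there summed to 594, 256, 508.5 and 758 CPM. The part of any of these cell types in the Abcc3 value was not tested. Without mouse 5 the log2 fold change of Abcc3 was 4.18 (adjusted p = 0.0295).

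Abcc1, Abcc3 and Abcc4 each gave groups that did not overlap, with higher Nrf2 values, as did 3.87% of all tested genes. These 3 were also the members of the 9 with a higher Nrf2 eye in 5 of 5 mice, which held for 9.23% of all tested genes, and Abcc10 was lower in 5 of 5, as were 10.9%. Abcc3 entered the tested genes through its Nrf2 eyes, so for Abcc3 the filter favoured both separate groups and a rise in 5 of 5 mice. The plot of CPM by eye shows each mouse as a line.

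**Figure D1:**
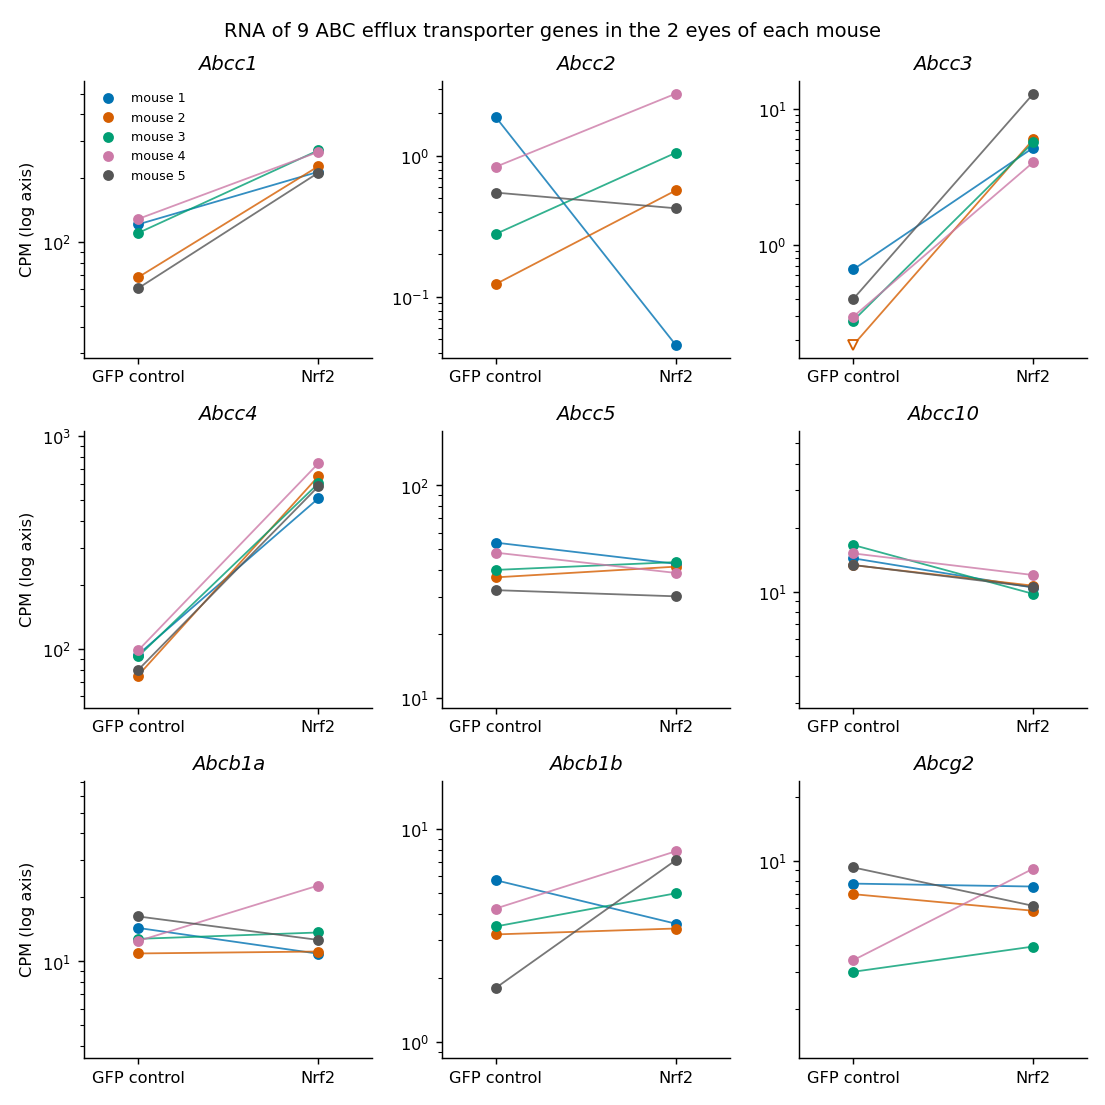
CPM (log axis, each panel with its own range) of each transporter gene in the GFP control and Nrf2 eye of the 5 mice, with a line for each mouse; the open triangle for Abcc3 marks a control eye with no count, drawn at its floor of 0.185 CPM. All 5 lines go up for Abcc1, Abcc3 and Abcc4 and all 5 go down for Abcc10, while directions are mixed in the other panels.

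The 3 other MRP genes did not pass. Abcc10 (ENSMUSG00000032842, chromosome 17, 46303221 to 46328352, minus strand) encodes MRP7, an exporter of lipophilic drugs. It was at 14.3, 13.3, 16.6, 15.1 and 13.3 CPM in the control eyes of mice 1 to 5 and at 10.4, 10.7, 9.74, 11.95 and 10.5 CPM in their Nrf2 eyes. The Nrf2 eye was the lower in each mouse and the groups did not overlap, as in 2.41% of all tested genes in that direction. The log2 fold change of -0.46 (SE 0.07) had an adjusted p of 0.106 and an unadjusted p of 0.0105. The adjusted p over the alternatives ran from 0.0637 to 1, and none passed. Exons of Abcc10 share 51 bases with Dlk2 on the opposite strand, which had 58 to 240 counts and a log2 fold change of 0.43 (adjusted p = 0.561).

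Abcc5 (ENSMUSG00000022822, chromosome 16, 20331303 to 20426394, minus strand) encodes MRP5, a pump for cyclic nucleotides. It was at 32.2 to 53.9 CPM in control and 30.1 to 43.6 CPM in Nrf2 eyes. The groups overlapped, and the fitted log2 fold change of Abcc5 was -0.11 (adjusted p = 0.727, SE 0.11), higher in 2 mice and lower in 3.

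Abcc2 (ENSMUSG00000025194, chromosome 19, 43782192 to 43840740, plus strand) encodes MRP2, the pump that moves bilirubin glucuronide and other conjugates across the apical membrane of hepatocytes into bile. It was barely detected, with 2 to 37 counts in control and 1 to 34 counts in Nrf2 eyes. The counts in mice 1 to 5 were 37, 2, 4, 14 and 15 in control and 1, 14, 28, 34 and 7 in Nrf2 eyes, so the Nrf2 eye was lower in mice 1 and 5 and higher in the other 3. The log2 fold change of Abcc2 was 0.35 (SE 1.03, adjusted p = 0.910), with mice that differed in direction.

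Abcb1a and Abcb1b, neighbours on chromosome 5 (8660077 to 8748575 and 8798147 to 8866315, both on the plus strand), encode the mouse P-glycoproteins, with Abcb1a known as the form of the blood vessels of brain and retina. Abcb1a (ENSMUSG00000040584) was at 10.9 to 16.3 CPM in control and 10.9 to 22.8 CPM in Nrf2 eyes, and its fitted log2 fold change was 0.03 (adjusted p = 0.971, SE 0.22). Abcb1b (ENSMUSG00000028970) was at 1.79 to 5.76 CPM in control and 3.42 to 7.89 CPM in Nrf2 eyes, and its fitted log2 fold change was 0.54 (adjusted p = 0.530, SE 0.41). Both groups overlapped for both genes. Abcb1b was higher in 4 of 5 mice, with the largest fold, 3.61, in mouse 5, whose control eye was the lowest of the 10. The pair is similar in sequence: 16.3% of all stretches of 50 bases in Abcb1a transcripts also occurred in Abcb1b, so their reads could have been shared or lost. Counted against any other annotated gene, the share was 22.5% for Abcb1a and 12.8% for Abcb1b. For each of the other 7 genes, at most 0.844% of such stretches occurred in any other annotated gene.

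Abcg2 (ENSMUSG00000029802, chromosome 6, 58584523 to 58695676, plus strand) encodes a transporter that works as a dimer and, like Abcb1a, is known in barrier endothelium. It was at 3.00 to 9.30 CPM in control and 3.95 to 9.19 CPM in Nrf2 eyes, and its fitted log2 fold change was 0.15 (adjusted p = 0.876, SE 0.34). By the TMM-scaled paired ratio, the Nrf2 eye was the higher in mice 1, 3 and 4, most in mouse 4 (2.53-fold), and the lower in mice 2 and 5. In mouse 1 the eyes were nearly equal, and without TMM scaling the Nrf2 eye was the lower there (7.80 CPM in control and 7.56 CPM in the Nrf2 eye). Without mouse 4 the fitted values of Abcg2 and Abcb1a were -0.11 and -0.13, so mouse 4 set their sign. The Nrf2 eye of mouse 4 also had the highest summed level of 6 fibroblast markers, 775 CPM against 135 to 379 CPM in the other Nrf2 eyes, and was highest for markers of choroidal melanocytes (4880 CPM against 1979 to 3975) and inner retina neurons (1150 CPM against 461 to 817). The part of these cells in the 2 values was not tested. The 8 endothelium markers summed to 19.7 to 128 CPM in control and 52.2 to 119 CPM in Nrf2 eyes, and 0 of them passed in either direction with edgeR or DESeq2, nor at an unadjusted p under 0.05. Their sum was higher in the Nrf2 eye of 4 mice, and in mouse 4 it was 128 CPM in the control and 58.0 CPM in the Nrf2 eye.

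The second question was whether the family responded as 1 unit. Within each mouse the log2 ratio of Abcc4 was set against that of each other gene. The ratio of Abcc4 was above that of Abcc1 by 1.47 on the log2 scale (SE 0.13, n = 5 mice, range 1.06 to 1.87). It exceeded Abcc5 by 2.90 (SE 0.11), Abcc10 by 3.25 (SE 0.10), Abcb1a by 2.76 (SE 0.21), Abcb1b by 2.26 (SE 0.40), Abcg2 by 2.63 (SE 0.36) and Abcc2 by 2.67 (SE 0.96), in 5 of 5 mice for each. Abcc3 went the other way, with a ratio above that of Abcc4 in 5 of 5 mice. Over the 4 mice with an Abcc3 count in the control eye, Abcc4 minus Abcc3 was -0.97 (SE 0.35, range -1.83 to -0.35). With mouse 2 it was -1.32, a value that depends on the prior count of 2 set in place of its control count of 0, and -1.91 with a prior count of 0.5. All 8 comparisons gave p = 0.0625 before and after adjustment (two-sided exact permutation test that flips signs within mice), which is the smallest p that 5 mice allow, so none could pass 0.05.

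The ratio of Abcc4 ran from 2.51 in mouse 1 to 3.10 in mouse 2, whereas that of Abcc1 ran from 0.90 to 1.72. That of Abcc3 ran from 2.86 in mouse 1 to 4.61 in mouse 5 over the 4 mice with a control count, and in mouse 2 it is known only as the lower bound given above. Mouse 1 had the lowest ratio for all 3 of these genes. For Nfe2l2 the lowest ratio was in mouse 5 (1.62) and the highest in mouse 3 (2.19).

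**Figure D2:**
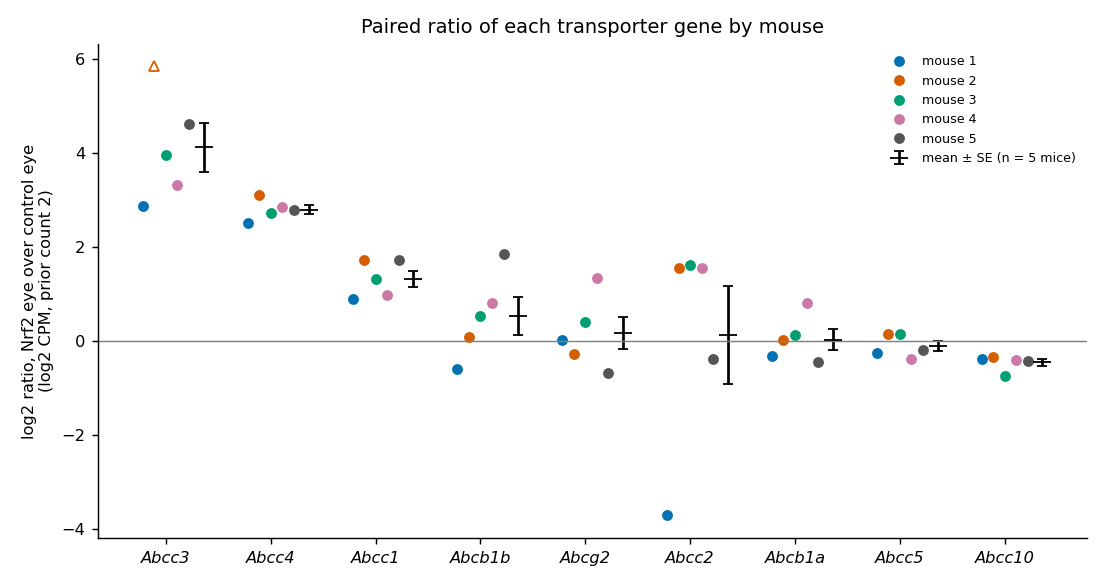
Log2 ratio of the Nrf2 eye over the control eye of the same mouse (log2 CPM with a prior count of 2) for each transporter gene, with 1 point for each mouse and the mean ± SE of 5 mice in black; the open triangle is Abcc3 in mouse 2, whose control eye had no count, so that its height and the Abcc3 mean depend on the prior count. Abcc3, Abcc4 and Abcc1 lie wholly above 0 and Abcc10 wholly below it, and the single point near -3.71 is Abcc2 in mouse 1, where 37 counts were set against 1.

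The third question was how much RNA of each pump the RPE samples held. Levels of different genes were compared as CPM per kilobase of merged exons. In control eyes the order of medians was Abcc4 (14.4), Abcc1 (7.33), Abcc5 (3.75), Abcb1a (2.33), Abcc10 (2.09), Abcg2 (0.854), Abcb1b (0.437), Abcc2 (0.0644) and Abcc3 (0.0524 CPM per kilobase). Neighbours overlapped over the 5 eyes for Abcc1 and Abcc5, Abcb1a and Abcc10, Abcg2 and Abcb1b, and Abcc2 and Abcc3, and the other 4 neighbouring pairs did not overlap. The lead of Abcc4 over Abcc1 in control eyes rests on the gene length used. Merged exons of Abcc1 span 15092 bases against 6792 for its longest transcript, and by longest transcript Abcc1 had a median of 16.3 and Abcc4 of 16.1 CPM per kilobase, with Abcc4 the higher in 2 of 5 control eyes.

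In Nrf2 eyes Abcc4 had a median of 94.0 CPM per kilobase, with Abcc1 next at 15.1, and Abcc4 exceeded it in 5 of 5 eyes with no overlap by either length (105 against 33.5 by longest transcript). Abcc3, the last in control eyes, had a median of 0.997 CPM per kilobase in Nrf2 eyes, and its range overlapped those of Abcb1a, Abcc10, Abcg2 and Abcb1b. Its place by median depends on the length used: it stood above Abcg2 and Abcb1b by merged exons, but by longest transcript Abcb1b had 1.16, Abcc3 1.14 and Abcg2 1.07 CPM per kilobase.

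**Figure D3:**
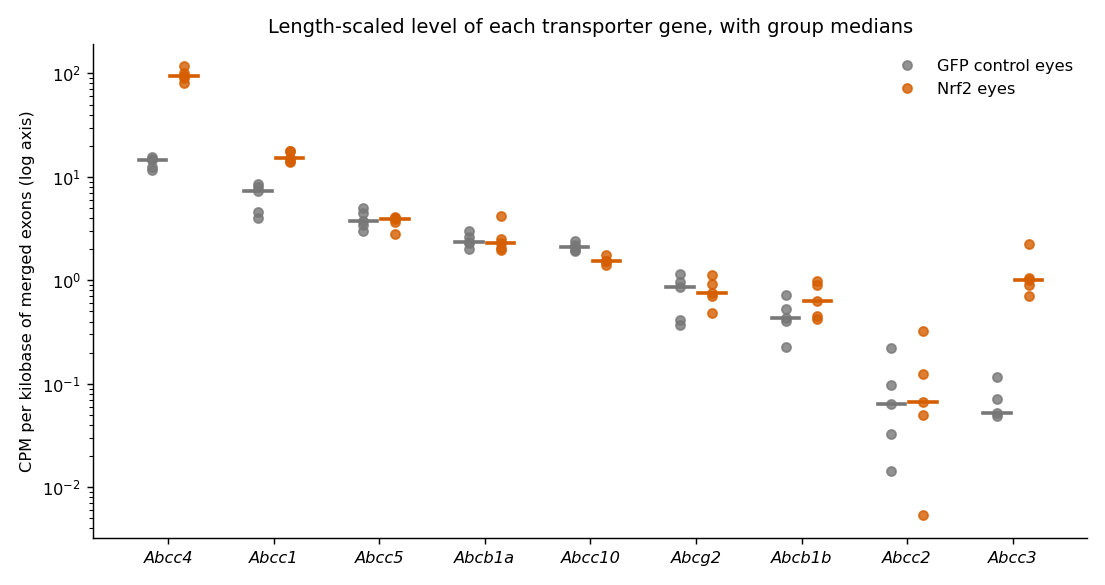
CPM per kilobase of merged exons (log axis) of each transporter gene, ordered by the median of the control eyes, with 1 point for each eye and a bar at the median of 5 eyes; a control value of 0 for Abcc3 is not drawn. Abcc4 stands highest in both groups, and Abcc3 moves from the lowest median to within the range of Abcg2.

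Summed over the 9 genes, the length-scaled level was 24.9 to 34.6 CPM per kilobase in control eyes and 104 to 147 in Nrf2 eyes. The sum of a mouse's Nrf2 eye was 3.01 to 5.07 times that of its control eye, and without Abcc4 it was 1.21 to 1.88 times. The share of Abcc4 in the sum was 42.7% to 48.1% in control and 76.9% to 80.4% in Nrf2 eyes. By longest transcript these shares were 31.5% to 38.3% and 65.6% to 70.3%. The share of Abcc1 was 15.5% to 25.1% in control and 11.9% to 14.7% in Nrf2 eyes, although its own level rose. By longest transcript the shares of Abcc1 were 24.6% to 36.7% and 20.7% to 24.9%, which overlap.

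**Figure D4:**
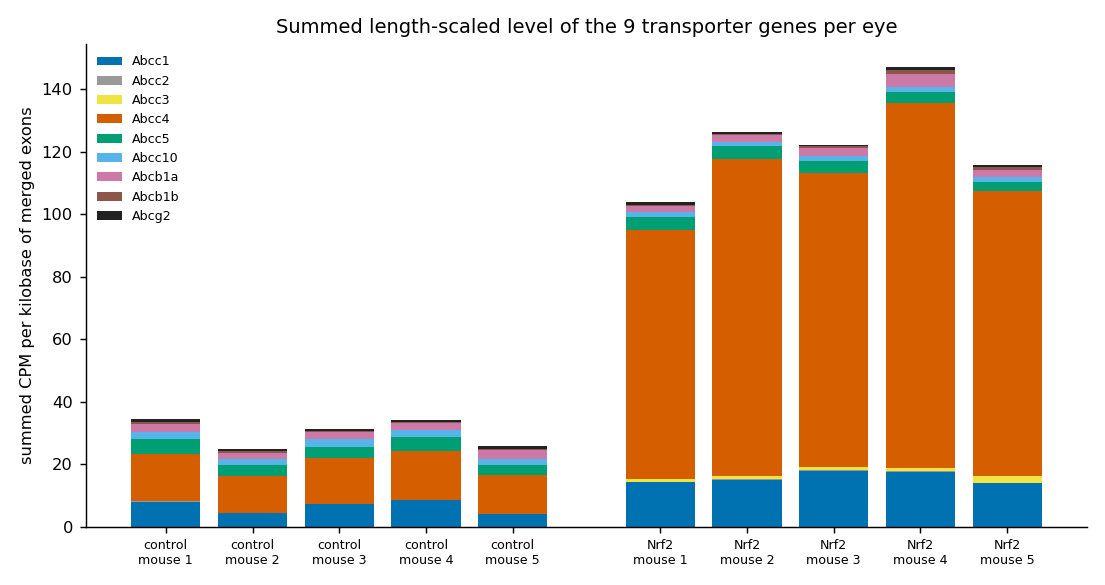
Summed CPM per kilobase of merged exons of the 9 transporter genes in each eye, stacked by gene, with control eyes on the left and Nrf2 eyes on the right. The Nrf2 bars reach 104 to 147 against 24.9 to 34.6 in control eyes, and most of the added height is Abcc4.

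The rest of the ABC family was examined to place these genes. Of 35 other ABC genes, 28 were tested, 1 was higher and 2 were lower at an adjusted p under 0.05, and the median log2 fold change was 0.19. Abca8b, a member of the lipid-related ABCA branch, rose from 1.46 ± 0.832 to 13.1 ± 2.58 CPM (log2 fold change 3.26, SE 0.26, adjusted p = 0.00119). Abcb9, a lysosomal peptide transporter, had a log2 fold change of -0.85 (adjusted p = 0.0208, SE 0.17), and Abca5 one of -0.79 (adjusted p = 0.0237, SE 0.16). The most abundant, Abca4, which clears retinoids in photoreceptors and the RPE, was at 333 ± 112 CPM in control and 264 ± 65.1 CPM in Nrf2 eyes (adjusted p = 0.516).

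**Figure D5:**
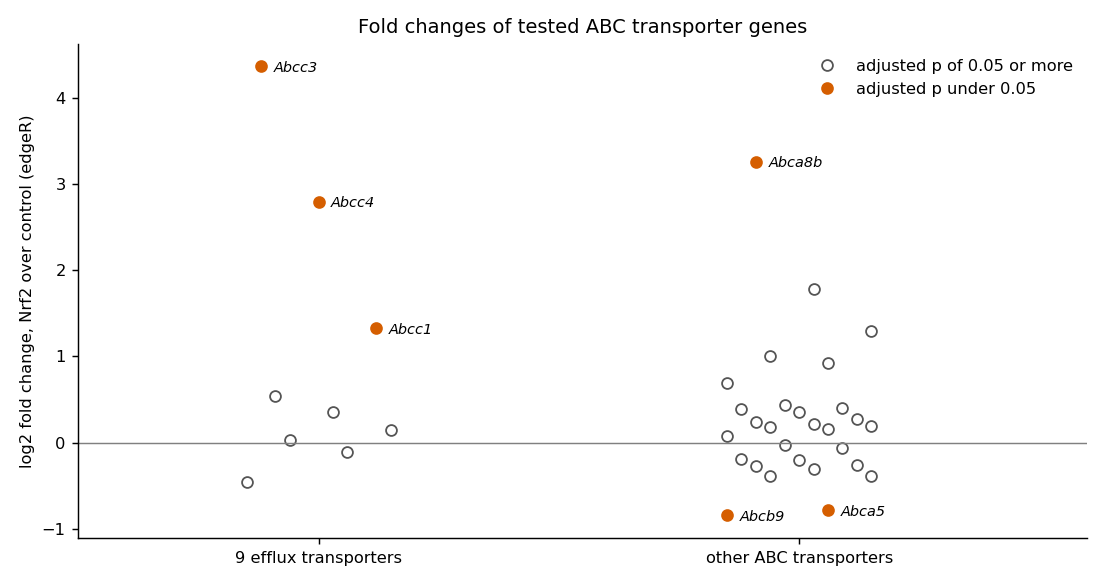
Log2 fold change (edgeR, Nrf2 over control) of the 9 efflux transporter genes and of the 28 other tested ABC genes, with filled points for an adjusted p under 0.05; the sideways position only separates points. Abcc3, Abcc4 and Abcc1 are the filled points on the left, and Abca8b, Abca5 and Abcb9 those on the right.

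The enzymes that make substrates for these pumps were taken as lists. Of 6 genes of glutathione supply, 5 rose and none fell, led by Gclc (log2 fold change 4.46, SE 0.14), which with Gclm forms the enzyme that starts glutathione synthesis, Slc7a11 (3.52, SE 0.15), which imports cystine, and Gclm (2.95, SE 0.11). The median log2 fold change of this list was 2.54. Of 23 glutathione transferases, 11 rose and 2 fell (median log2 fold change 0.94), with the largest changes in Gstm1 (6.07, SE 0.17), Gstm3 and Gsta2 (3.23, SE 0.12). Gstm3 had 0 or 1 counts in control and 17 to 59 counts in Nrf2 eyes, so no fold is given for it. It passed the filter on low counts only through the Nrf2 eyes, and its place among the largest changes rests on those control counts. Gsto1, the most abundant, was at 7819 ± 2006 CPM in control and 10360 ± 2602 CPM in Nrf2 eyes (adjusted p = 0.509). Gstm and Gsta genes have close copies that could share reads.

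Glucuronide and sulfate conjugation make the other conjugates that these pumps carry. Of 21 genes, 13 were tested, 3 rose and 1 fell, and the median log2 fold change was 0.09. Ugt1a6b and Ugt1a6a, glucuronosyltransferases that share exons at 1 locus and so could share reads, rose, with log2 fold changes of 1.54 (adjusted p = 0.0150) and 1.22 (adjusted p = 0.0199). Sult1a1, a sulfotransferase, fell (log2 fold change -0.59, adjusted p = 0.0438). Papss1, which makes the sulfate donor and was the most abundant of this list, was at 134 ± 21.4 and 127 ± 6.04 CPM (adjusted p = 0.765).

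Carriers that move drugs and organic anions across membranes without ATP formed another list. Of 22 such genes, 16 were tested, 4 fell and 1 rose, with a median log2 fold change of -0.03. Their summed level was 984 to 1144 CPM in control and 599 to 786 CPM in Nrf2 eyes, lower in 5 of 5 mice. The summed RPE markers were lower in 5 of 5 mice as well, with 5 of 8 called lower, and their part in the carriers' values was not tested. Slco1c1, a carrier of thyroid hormone and organic anions, fell (log2 fold change -2.88, SE 0.25, adjusted p = 0.000788). Slc22a8, the organic anion transporter OAT3, was the most abundant of the list and fell from 297 ± 65.9 to 142 ± 45.8 CPM (log2 fold change -1.11, SE 0.22, adjusted p = 0.0153). Slco1a5, of the same carrier family as Slco1c1, also fell (log2 fold change -1.38, SE 0.17, adjusted p = 0.00377). Slco2b1 rose (log2 fold change 2.56, SE 0.63, adjusted p = 0.0334), from 1.71 ± 0.655 to 11.5 ± 7.90 CPM. In the same eyes 7 of 10 microglia and macrophage markers rose, and their part in the Slco2b1 value was not tested.

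Genes of proteins that anchor or recycle these pumps at the membrane, such as ezrin, did not pass: 0 of 7 tested genes with edgeR, with 1 gene lower at an unadjusted p under 0.05 and 1 lower with DESeq2. In both cases it was Slc9a3r1, the scaffold NHERF1, named after its values were seen (log2 fold change -0.61, adjusted p = 0.0940). Ezr, the most abundant, was higher in 5 of 5 mice (adjusted p = 0.290, log2 fold change 0.23, SE 0.05). Of 11 xenobiotic receptors and regulators, 9 were tested, and besides Nfe2l2 the 1 gene that passed was Ppara, the fatty acid receptor, which fell (log2 fold change -1.01, adjusted p = 0.0204).

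To find genes that behaved like the 3 risen pumps, the 5 paired log2 ratios of each were compared with those of the 10230 tested genes with a mean of at least 10 CPM. The nearest to Abcc4 were Rida, Creg1 and Gclm, with root mean square differences of 0.25, 0.25 and 0.26 on the log2 scale over 5 mice. The nearest to Abcc1 were Hsd3b7 (0.20), Iqsec2 (0.24) and Sqor (0.24). No gene came as near to Abcc3: Muc5b was at 0.53, Txnrd1, thioredoxin reductase, at 1.00 and Slc1a4 at 1.01. These distances describe likeness of fold change over the mice and were not tested, and those from Abcc3 include mouse 2, whose ratio is set by the prior count.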

How the data were processed

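RNA abundance was measured by RNA sequencing in 10 libraries, the GFP control and Nrf2 eyes of 5 mice. Per the study's methods and the labels, the retina was removed, RNA was collected from the eyecup and amplified with a low-input polyA kit, and sequencing took separate runs that the labels do not assign to libraries. The authors aligned reads with STAR to mm10 with Ensembl transcripts, counted them with featureCounts, and estimated counts in parallel with Salmon 0.8.2 (version from the submitters' processing notes). Which of these was deposited, the strand setting and the filters are not given in the sources used here. The deposited values are raw counts per gene, with 0 columns of other samples.

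Gene symbols, positions and exon lengths came from GENCODE M21 (GRCm38, mm10), which matched 47224 of 47729 identifiers (98.9%), and promoters from RefSeq (GRCm38.p6). CPM were computed from library totals. Counts were fitted with edgeR 4.0.16 in R 4.3.3 (filterByExpr, TMM, quasi-likelihood F test, mouse as a block, Benjamini-Hochberg adjustment over 16362 genes, threshold 0.05), checked on simulated counts. Log2 fold changes are fitted values; SE is that of the 5 paired differences of log2 CPM (prior count 2, TMM). Eyes were paired by the animal in the labels: deviations from group means correlated across genes with r from 0.19 to 0.71 within mice (median 0.25) and from -0.42 to 0.28 between mice. No libraries agreed within sampling noise (smallest chi-square per degree of freedom 37.4). A count of 0 allows up to 3 counts, 0.110 to 0.244 CPM here. Alternatives were DESeq2 1.42.0, RLE size factors, other filters, no block, rod or endothelium markers as a covariate, a test against a fold change of 1.5, other gene lengths and leaving out each mouse. Named genes were all 9 members, Nfe2l2, genes whose exons overlap a member and the 3 nearest by paired ratio. Each list outside the cell type markers gave at most its 3 called genes with the largest change and its most abundant gene. Outside this rule, Best1, Csf1r, Slc9a3r1 and the neighbours Tjap1, Ankrd40, Abcb4, Cldn10 and Fopnl were named after their values were seen. Members and lists were chosen with earlier results of these data known.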

Additional observations from a re-analysis of the deposited data

Results flagged for a closer look

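Of 27 groups of 5 values (the log2 CPM of each of the 9 genes in control eyes and in Nrf2 eyes, and its paired log2 ratios), 1 held a value far from the others, where chance gives about 1.35. The paired log2 ratio of Abcc10 was -0.74 in mouse 3, against -0.43 to -0.33 in the other 4 mice, and its gap to the nearest was 0.761 of the range, above the critical 0.71. Without mouse 3 the log2 fold change of Abcc10 was -0.33 (adjusted p = 0.370, edgeR).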

How the results depend on the processing

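The mouse block was the main design, and without the pairing by mouse 755 genes passed in place of 1036, of which 687 were shared, and the same 3 of the 9 pumps passed. The count of genes also moved with DESeq2 (1823 of 19309 genes with an adjusted p, with more genes given a p than in edgeR), with rod markers as a covariate (464, the cause was not tested) and when genes were tested against a 1.5-fold threshold (443, a stricter question). Leaving out each mouse in turn gave 584 (without mouse 2) to 857 genes, with 613 without mouse 4 and 683 without mouse 5. Abcc1, Abcc3 and Abcc4 kept their direction and passed in all 13 alternatives, with the highest adjusted p, 0.0400, for Abcc3 with the rod covariate. The log2 fold changes of genes that did not pass turned sign with the rod covariate for Abcc2 (-0.59), Abcb1a (-0.23) and Abcg2 (-0.20). Leaving out each mouse, they ran from -0.11 to 0.60 for Abcc2, from -0.13 to 0.15 for Abcb1a and from -0.11 to 0.37 for Abcg2. Abcc2 did not reach a mean of 50 counts, nor the filter without mouse 1, and has no value there. By longest transcript 5 of the 9 genes kept their place in the order of levels in control eyes, against 7 to 9 when each mouse was left out. The difference between the ratios of Abcc4 and each other gene kept its sign in all 7 alternatives. The values of Abcc2 and the control values of Abcc3 rest on at most 37 and 13 counts.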

Other observations

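Enzymes of other substrates and by-products handled by these pumps, the cyclic nucleotides, eicosanoids and heme products, were listed as well. Of 20 genes, 19 were tested, 6 rose and 1 fell, with a median log2 fold change of 0.10. Hmox1, which opens the heme ring, rose from 10.03 CPM (SD 2.95) in control to 693 CPM (SD 124) in Nrf2 eyes, a log2 fold change of 6.12 (SE 0.22), and Blvrb, biliverdin reductase B, from 26.9 ± 7.06 to 192 ± 15.96 CPM (log2 fold change 2.86, SE 0.19). Ltc4s, which makes the MRP1 substrate leukotriene C4, rose (log2 fold change 2.59, SE 0.43, adjusted p = 0.0163), from 0.615 ± 0.338 to 3.67 ± 1.61 CPM. In the same eyes 7 of 10 microglia and macrophage markers rose, and their part in this value was not tested. Alad, of heme synthesis, was the most abundant, at 394 ± 57.1 and 326 ± 49.1 CPM (adjusted p = 0.165, edgeR).

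The nearest protein-coding gene on each side of each pump, outside the 9 and not overlapping the pump, gave 16 genes. Of these, 12 were tested, and 0 rose and 1 fell with edgeR. At an unadjusted p under 0.05, 2 were higher and 2 lower, and DESeq2 called 1 higher (Abcb4) and 2 lower (Tjap1 and Ankrd40). The 16 genes were chosen by position, and Dlk2, which overlaps Abcc10, is not among them. The one that fell was Tjap1, 20194 bases from Abcc10 (log2 fold change -0.58, adjusted p = 0.0280). Abcb4, the phospholipid pump 27401 bases beyond Abcb1b, had a log2 fold change of 0.92 (adjusted p = 0.0758) and was higher in 5 of 5 mice. Next to Abcc3, Ankrd40, 1453 bases away, had a log2 fold change of -0.41 (adjusted p = 0.0752). The nearest tested gene to Abcc4, Cldn10, was at 0.67 (adjusted p = 0.675), and that to Abcc1, Fopnl, at 0.29 (adjusted p = 0.221).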
